A study of Mus musculus with 6 samples.

Results

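The distal microRNAs (miRNAs) of the imprinted Dlk1-Dio3 region are the array that runs from miR-379 to miR-410 and on to miR-3072 on mouse chromosome 12. Members were taken by position alone, as every row of the quantification table on the plus strand of chromosome 12 that starts inside a fixed window around the array in the mm10 build. The rule gave 75 mature miRNAs of the 1907 in the table, from 38 annotated hairpins that span 38.9 kb (chr12:109709065-109747949). The nearest row before the window, miR-882, starts at 109682207 and had 1 count in all libraries together. The libraries are small RNA libraries of liver from 12-week-old C57BL/6N mice of normal health on a chow diet, 3 females and 3 males that the labels describe as littermates. No animal carried a transgene or received a treatment according to the labels, and the sexes are compared in liver that has not been injured.

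The Dlk1-Dio3 region is expressed from a single parental chromosome. Its noncoding RNAs, Meg3, Rian, Mirg and the miRNAs between them, come from the maternal copy, and the hairpins are thought to be cut from long shared transcripts. A mature miRNA is 1 arm of such a hairpin (5p or 3p) and recognises targets mainly through its seed, bases 2 to 8 from the 5′ end. The array is best known from brain, where neuronal activity induces it, from placenta, and from newborn liver, where mice without it fail to adapt their metabolism after birth. In adult liver miR-379 is known as a glucocorticoid-responsive miRNA.

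The sequences below, from RefSeq (GRCm38.p6, the same build as mm10), belong to the members on which the results turn. Seeds are in capitals. The first 4 are the most abundant members, the fifth is the other arm of the miR-369 hairpin, and the next 4 form 2 pairs of close relatives.
miR-379-5p: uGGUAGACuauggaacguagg
miR-411-5p: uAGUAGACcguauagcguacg
miR-541-5p: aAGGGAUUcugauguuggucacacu
miR-369-3p: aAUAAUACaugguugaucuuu
miR-369-5p: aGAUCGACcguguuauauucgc
miR-381-3p: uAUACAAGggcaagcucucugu
miR-300-3p: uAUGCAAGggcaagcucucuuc
miR-376b-3p: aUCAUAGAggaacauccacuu
miR-376a-3p: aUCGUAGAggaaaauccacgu
Counting from 1 at the 5′ end, miR-381-3p and miR-300-3p differ by A4G, G21U and U22C over 22 bases. The pair miR-376b-3p and miR-376a-3p differs by A4G, C13A and U20G over 21 bases. In both pairs A4G lies in the seed, so the near-copies do not share a seed. Adenosines of several hairpins of this array, those of miR-376 among them, are known to be edited to inosine in brain; editing was not measured here.

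Close relatives among the 3p arms share a 7-base run, GGUCCAC, shown in capitals below. It starts at base 11, past the seed, in 4 of them and at base 8, the last base of the seed, in miR-412-3p. This run was chosen after the sequences were read.
miR-379-3p: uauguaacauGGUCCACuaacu
miR-411-3p: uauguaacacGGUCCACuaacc
miR-380-3p: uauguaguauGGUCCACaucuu
miR-758-3p: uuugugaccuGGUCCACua
miR-412-3p: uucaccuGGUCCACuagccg
These were 5 of the 71 members with a sequence, and 0 of the 1552 other mature miRNAs of the table with a sequence held the run on the strand of the miRNA. A second run, GGUUGNCC, was also chosen after the sequences were read. It occurred in 9 of the 71 members, 8 of them 5p arms, and in 0 of the 1552 others. A shared run is a description of the letters and says nothing on function. miR-379-3p and miR-411-3p have the same seed and differ by U10C and U22C. They were the highest of the 5 and had 73 and 55 counts in all libraries together, and the other 3 had between 1 and 8.

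Seeds were mostly private to a member. Among the 18 tested members with a sequence, no 2 had the same seed, and none shared it with another tested miRNA. miR-379-5p shares its seed with miR-1193-5p, which had 1 count. Outside the tested members, miR-329-3p (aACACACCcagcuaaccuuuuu), with 9 counts, has the seed of miR-362-3p, an X-chromosomal miRNA with 870 counts.

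Most members were barely present in adult liver. Library totals ran from 3285249 to 16444674 counts, so that 1 count stood for 0.0608 to 0.304 CPM (counts scaled to a library of 1000000), and between 38 and 57 of the 75 members had a count in a library. In all 6 libraries together 7 members had no count, which allows a level of up to 0.0749 CPM: miR-323-5p, miR-654-5p, miR-300-5p, miR-381-5p, miR-539-5p, miR-496a-5p and miR-410-5p. Another 35 members had between 1 and 9 counts, and 7 members were seen in male replicate 3, the deepest library, alone. The filter on low counts that precedes the test passed 19 members, 10 of them 5p and 9 of them 3p arms. The lowest that passed was miR-377-3p with 83 counts, and the highest that did not was miR-379-3p. The 56 members that did not pass held 555 of the array's 57388 counts. Even miR-410-3p and miR-495-3p, 3p arms well known from brain, had 4 and 2 counts. Intervals and limits of this kind reflect counting alone, and whether PCR copies of a molecule were counted again is not known.

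A single member, miR-369-3p (chr12:109743466-109743486, an intron of Mirg), held most of the array's reads. It is known for binding the AU-rich element of the TNF mRNA. It took 61.3, 45.0 and 47.6% of the array's counts in female replicates 1 to 3 and 68.5, 87.0 and 64.2% in male replicates 1 to 3. With a mean of 1030 CPM it was the 52nd most abundant miRNA of the table (rank 52 of 1907). The next members were miR-379-5p at a mean of 160 CPM (chr12:109709065-109709085), miR-411-5p at 97.8 CPM (chr12:109710190-109710210) and miR-541-5p at 93.8 CPM (chr12:109742422-109742446). These 3 made up 61.3 to 67.5% of the reads left once miR-369-3p was set aside. Behind them came miR-376b-3p, miR-381-3p, miR-382-5p, miR-300-3p and miR-134-5p, which lay between 19.9 and 23.6 CPM and whose order is not separated by their spread over libraries, and miR-154-5p at 17.3 CPM. miR-134 limits the growth of dendritic spines in neurons, and miR-376b represses autophagy genes. Levels of different miRNAs are CPM without a length term, and capture in library making differs between sequences, so this order is one of reads.

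**Figure D1:**
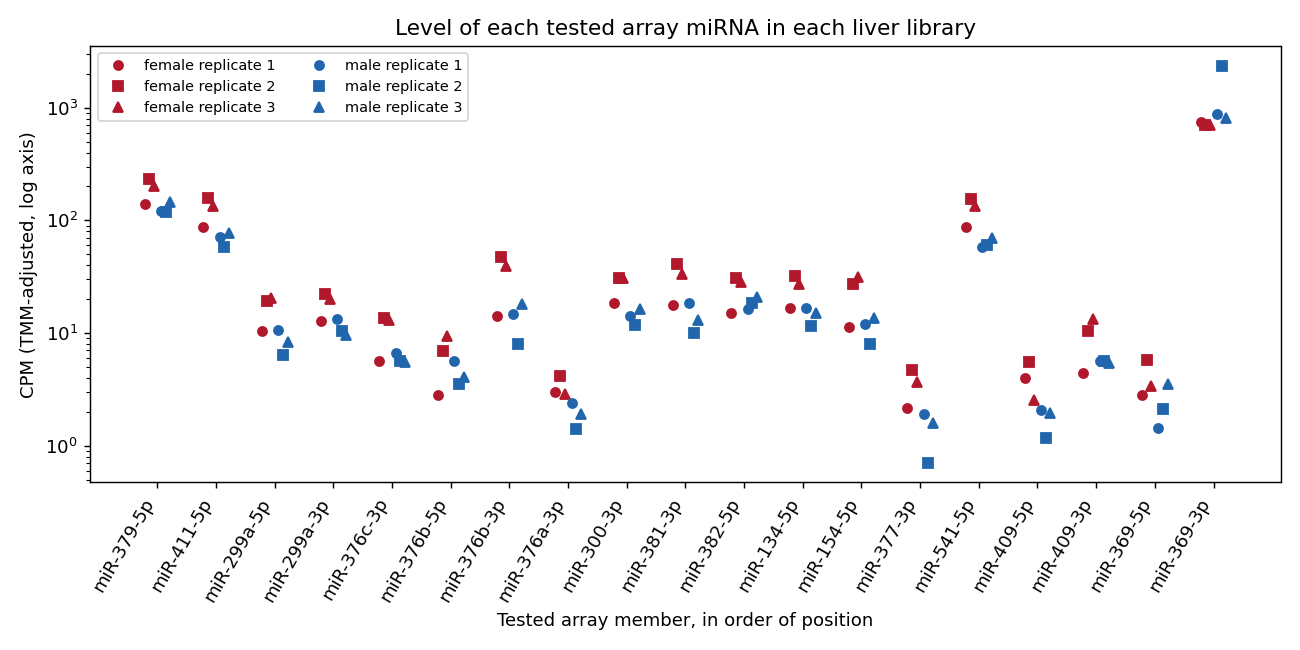
Level in CPM (log axis) of the 19 array members that passed the filter, in order of position, in each of the 3 female (red) and 3 male (blue) libraries, 1 point per library. miR-369-3p stands apart at the top with male replicate 2 at 2354 CPM, and miR-379-5p, miR-411-5p and miR-541-5p follow.

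Reads did not fall off from one end of the array to the other. The first 2 hairpins, Mir379 and Mir411, and the hairpins Mir541 and Mir369 near the far end were the richest, and long stretches between them had few reads. The annotated Mirg gene (chr12:109729764-109749460) covers 27 members, 16 in introns and 11 in sequence that is exon in at least 1 Mirg transcript. The other 48 members lie before its annotated start with no other annotated gene of another type on the plus strand. Of the 19 tested members, 10 lay before Mirg and 9 inside it.

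The 2 arms of a hairpin were used very unequally, and which arm dominated differed between neighbours. Among the 20 hairpins with at least 20 counts, the 5p arm led in 8 and the 3p arm in 12, and in 13 of the 20 a single arm held over 90% of the reads. The 5p arm took 98.8% of the Mir379 reads (95% exact binomial interval 98.5 to 99.0%), 98.4% of those of Mir411 (98.0 to 98.8%) and 99.8% of those of Mir541 (99.6 to 99.9%). In Mir300 and Mir381 all 729 and 737 reads came from the 3p arm, and for the 0 counts of the 5p arm the same interval reaches up to 0.505 and 0.499%. Besides Mir369, both arms passed the filter in the hairpins Mir299a, Mir409 and Mir376b, where neither arm reached 90%. Mir299a gave 45.9% of its reads from the 5p arm, with 38.0 to 50.7% over the 6 libraries, Mir409 gave 28.3% (16.1 to 47.1%) and Mir376b gave 19.0% (12.7 to 30.6%). Reads of Mir299a are uncertain, because the hairpin of miR-299b lies on the opposite strand of the same site and its 3p arm has the same letters as miR-299a-3p over the bases compared. The table lists miR-299b-3p at 0.

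**Figure D2:**
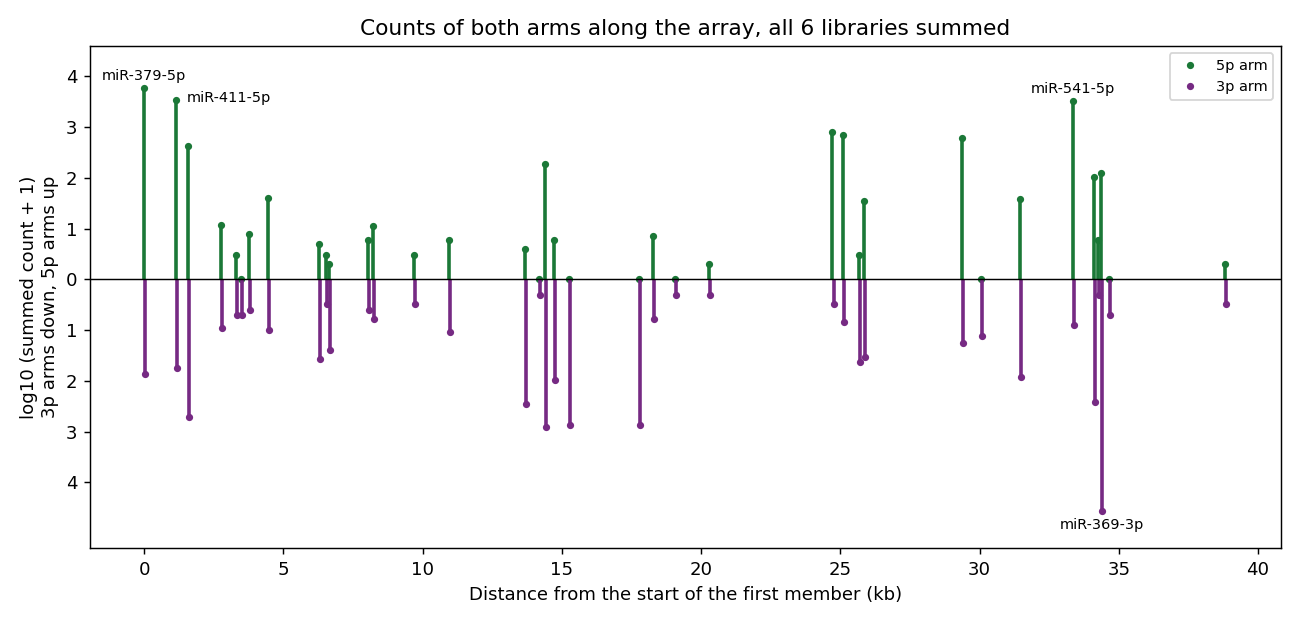
Summed counts of the 6 libraries, as log10 of count plus 1, for the 5p arm (upward, green) and the 3p arm (downward, purple) of each member against its distance in kb from the start of miR-379-5p. The 4 richest arms are named, and in most hairpins with many reads a single arm is tall.

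The tested members leaned towards higher levels in female liver, and 2 of them passed the threshold. Of the 19 tested members, 18 had a positive log2 fold change (female over male), where 48.1% of all 370 tested miRNAs did, and the median was 0.82 against -0.01 over all tested miRNAs. The filter keeps a miRNA with enough counts in as many libraries as a sex has. miR-376a-3p, miR-377-3p, miR-409-5p and miR-369-5p had enough counts in every female but not in every male. Their positive values were thus favoured in advance. With no filter, and so with members near the floor included, 40 of 68 members were positive. The median was then 0.63 against -0.10 over all miRNAs. Of the 19, 2 were higher in females, miR-541-5p and miR-411-5p, 0 were lower, and 17 did not pass (edgeR quasi-likelihood test, adjusted p of 0.05 over all 370). Among all tested miRNAs 3.24% were called higher, 3.51% lower and 6.76% in either direction, so the excess of calls in the array rests on those 2 miRNAs. The members are thought to share transcripts, so the 18 positive values may not be independent observations. In 6 of the 19 every female library lay above every male library, as in 10.5% of all tested miRNAs, and in 1 every male library lay above, as in 11.1%. The 6 include miR-376a-3p, miR-377-3p and miR-409-5p, for which the filter favoured this order, so the count of 6 is not support of its own. At an unadjusted p of 0.05, 15 of the 19 passed, 14 of them higher, beside 18.1% of all tested miRNAs. In tissue RNA a change in the number of cells that make a miRNA and a change in its level per cell cannot be told apart.

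miR-541-5p, from an intron of Mirg, stood at 87.9, 154 and 134 CPM in the females and 57.5, 60.5 and 69.9 CPM in the males. The groups did not overlap, and female replicate 1 was the closest to the males. The means were 125 ± 33.7 and 62.6 ± 6.48 CPM (SD, n = 3 each), with a log2 fold change of 0.99 (SE 0.22, adjusted p = 0.0230, edgeR). It passed in all 9 other fits on the 6 libraries, with adjusted p from 0.000442 to 0.0343. It did not pass without female replicate 2 (adjusted p = 0.116, edgeR) or without female replicate 3 (0.0938). miR-411-5p stood at 87.5, 158 and 134 CPM in the females and 70.9, 58.6 and 77.9 CPM in the males, again without overlap. The means were 126 ± 35.7 and 69.1 ± 9.78 CPM (SD, n = 3 each), with a log2 fold change of 0.86 (SE 0.23, adjusted p = 0.0454, edgeR). It missed the threshold with upper-quartile factors (adjusted p = 0.0743), with a minimum count of 50 (0.0519) and in limma-voom (0.0707), and whenever a library other than female replicate 1 was left out (0.0538 to 0.210).

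miR-379-5p, miR-376b-3p, miR-381-3p and miR-300-3p had their highest levels in female replicates 2 and 3 and did not pass. miR-379-5p stood at 139, 231 and 203 CPM in females and 122, 118 and 146 CPM in males, so that female replicate 1 fell among the males (log2 fold change 0.57, SE 0.20, edgeR adjusted p = 0.132). The next hairpin's miR-411-5p differs from it at 7 of 21 bases, with G2A in the seed. The largest log2 fold change of the array was that of miR-376b-3p, at 1.23 (SE 0.41, adjusted p = 0.108, edgeR). Female replicates 2 and 3 held 47.6 and 39.1 CPM of it, and female replicate 1, at 14.0 CPM, lay within the 8.03 to 18.2 CPM of the males. miR-381-3p and miR-300-3p, 3 bases apart, came closest to the threshold. miR-381-3p had 17.8, 41.0 and 33.6 CPM in females and 18.4, 9.92 and 13.0 CPM in males (log2 fold change 1.14, SE 0.32, adjusted p = 0.0557, edgeR). miR-300-3p had 18.3, 31.0 and 31.1 CPM in females and 14.2, 11.8 and 16.3 CPM in males, without overlap (0.89, SE 0.25, adjusted p = 0.0575, edgeR).

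The log2 fold changes of further tested members were 0.77 for miR-134-5p, 1.004 for miR-154-5p and 0.39 for miR-382-5p, which was the smallest positive value. Where both arms of a hairpin were tested, both leaned the same way in Mir299a (0.94 for 5p and 0.72 for 3p), Mir376b (0.45 and 1.23) and Mir409 (1.14 and 0.71), and in opposite ways in Mir369. miR-409-3p is known to repress fibrinogen in liver cells. The counts of miR-376b-5p are uncertain, since miR-376c-5p differs from it by G19U alone, although the latter had 3 counts in all libraries. miR-376a-3p, miR-376c-3p and miR-377-3p, named after their values were seen, had 0.76, 0.82 and 1.17. None of the members of these sentences passed, with adjusted p from 0.0963 to 0.654 (edgeR).

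**Figure D3:**
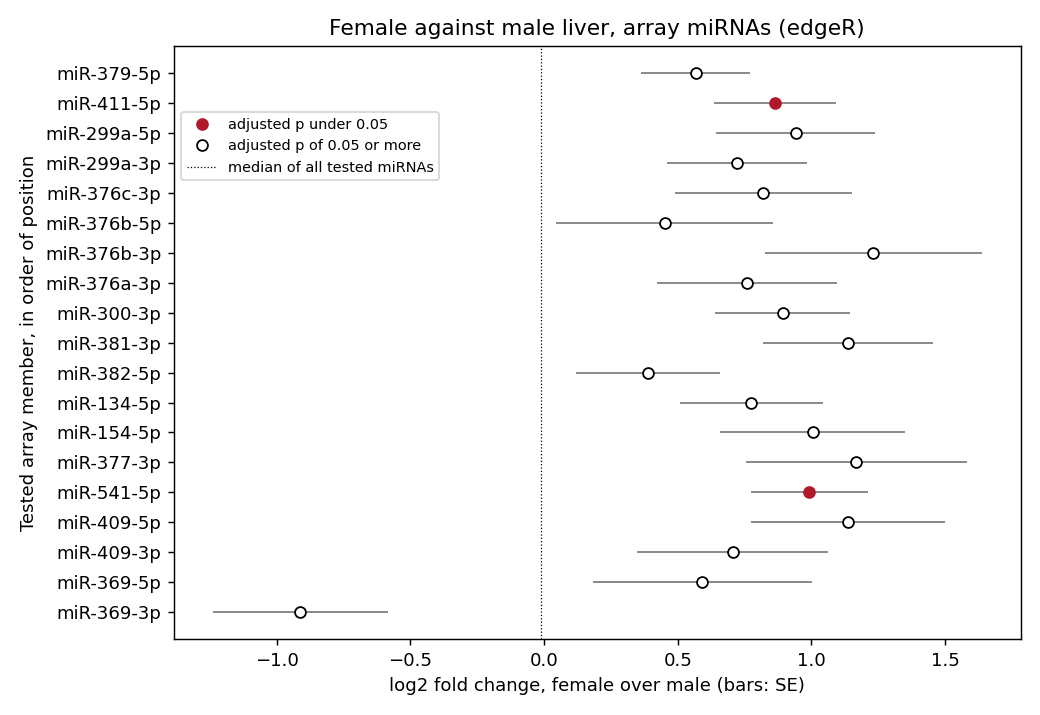
Log2 fold change, female over male, with its SE, for the 19 tested array members in order of position; filled red points passed an adjusted p of 0.05 and the dotted line is the median of all 370 tested miRNAs. 18 points lie to the right of the line between 0.39 and 1.23, and miR-369-3p lies alone at -0.91.

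The higher female values lay mostly in female replicates 2 and 3. Relative to the male mean, the median of the 18 tested members other than miR-369-3p was higher by 1.18 and 1.09 on the log2 scale in female replicates 2 and 3 but by 0.22 in female replicate 1, while the 3 males had 0.14, -0.29 and 0.16. Female replicates 2 and 3 both lay above every male in 17 of these 18 members, and female replicate 1 lay above every male in 6. The highest library was female replicate 2 in 13 of the 18 and female replicate 3 in the other 5, and the lowest was male replicate 2 in 11. Female replicate 1 was the lowest female in 16 of the 18. Without it 12 of 20 tested members were called, all higher, where 8.47% of all 378 miRNAs tested in that fit were called and 23 of them were higher. Without female replicate 2 or without female replicate 3, 0 of 20 and 0 of 22 were called in edgeR, beside 2.26% and 2.5% of all miRNAs tested, while 6 and 8 had an unadjusted p under 0.05. The median over the tested members was 1.09, 0.60 and 0.76 in these 3 fits. Female replicates 2 and 3 were also the libraries with the fewest counts. With every library thinned to the same total, 15 of 16 tested members were positive, the median was 0.84, and the same 2 members were called. Thinning keeps the expected share of each miRNA in a library, so little change of the median was foreseen. Whether the small totals go with the higher values was not tested.

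**Figure D4:**
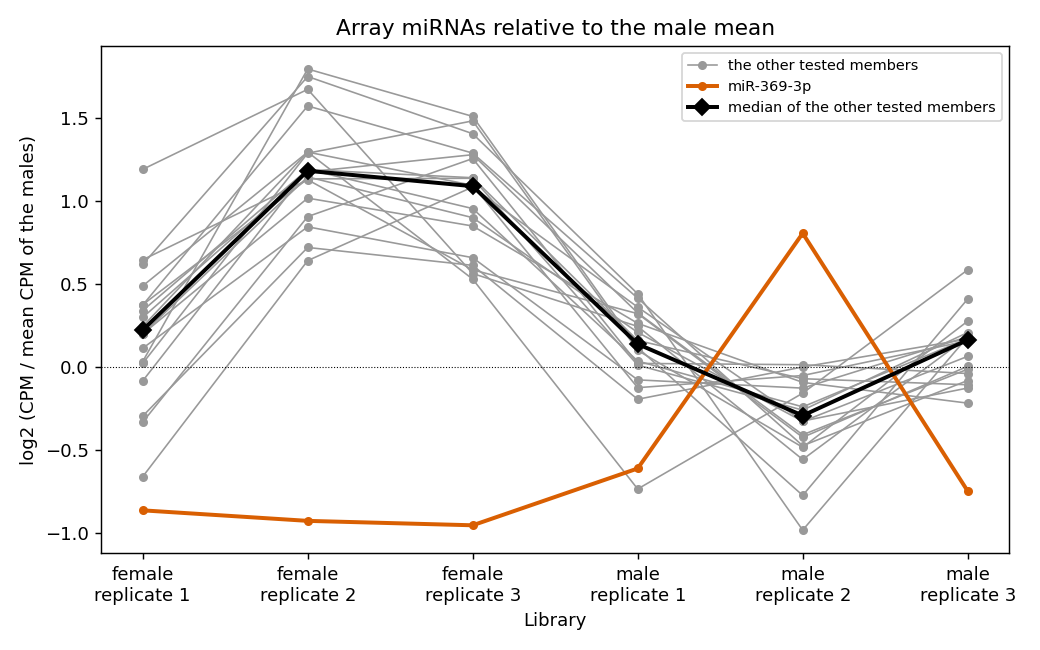
Log2 of each member's CPM over its male mean in each library, for miR-369-3p (orange), the 18 other tested members (grey) and their median (black); lines join the values of 1 miRNA and imply no order of libraries. The grey lines peak in female replicates 2 and 3, and the orange line peaks in male replicate 2.

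miR-369-3p did not follow its neighbours. It stood at 740, 709 and 696 CPM in the females, a narrow range, and at 882, 2354 and 802 CPM in the males. Each male lay above each female, but the gap was small except for male replicate 2. Females averaged 715 ± 23.0 and males 1346 ± 874 CPM (SD, n = 3 each), and the log2 fold change of -0.91 did not pass (SE 0.33, adjusted p = 0.135, edgeR). Without male replicate 2 it was -0.23 (adjusted p = 0.300, edgeR). Male replicate 2 held 3.18 times the median of the other 5 libraries, the 4th highest such ratio of the 370 tested miRNAs (rank 4), whereas the other 18 tested members had ratios of 0.330 to 0.995 in that library. The other arm of the same hairpin, miR-369-5p, stood at 2.81, 5.81 and 3.42 CPM in females and 1.42, 2.13 and 3.56 CPM in males (log2 fold change 0.59, SE 0.41, adjusted p = 0.507, edgeR). It had 17, 21 and 12 counts in the females and 9, 9 and 56 in the males, few for a ratio. There were 264, 122 and 203 reads of the 3p arm for each read of the 5p arm in the females and 619, 1108 and 226 in the males. This ratio does not depend on scaling; its mean log2 value was 7.55 in females and 9.07 in males, and the groups overlapped (exact two-sided permutation test p = 0.2, where 3 against 3 cannot go below 0.1). Among mature sequences of the same length or seed, the closest, miR-323-3p, differs from miR-369-3p at 7 bases and had 4 counts. The longer miR-154-3p of the same array, left out of that comparison, is closer letter by letter and had 17 counts. What sets the level of miR-369-3p in male replicate 2 was not tested.

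The sum over the array therefore depended on this single member. Summed levels were 1208, 1573 and 1463 CPM in females and 1287, 2705 and 1250 CPM in males, with overlap and a log2 ratio of the means of -0.30. Without miR-369-3p, a choice made after seeing the data, the sums were 467, 864 and 767 CPM in females and 405, 351 and 448 CPM in males. These did not overlap, and the means of 700 ± 207 and 401 ± 48.7 CPM (SD, n = 3 each) gave a log2 ratio of 0.80. Without male replicate 2 the full sum had a log2 ratio of 0.16.

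The proximal miRNAs of the same region, from miR-770-5p (start 109563710) to miR-882 on the plus strand, gave similar values side by side. Of these 33 miRNAs 7 were tested, 2 were higher in females and 0 lower, 6 had positive log2 fold changes, and the median was 0.87. The difference between the distal and proximal members was not tested. The only negative value was that of miR-127-3p, a repressor of Rtl1 encoded antisense to it, which had its highest level, like miR-369-3p, in male replicate 2: 88.6 CPM against 42.5 to 56.5 CPM in the other 5 libraries.

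miR-122-5p, the main hepatocyte miRNA, was abundant in every library, at 315475 to 316480 CPM in females and 343502 to 387285 CPM in males, without overlap. The sum of the 5 hepatocyte markers, which is mostly miR-122-5p, was also higher in every male, at 396928 to 440474 against 370700 to 374504 CPM. Of the 5, 4 had positive log2 fold changes, and 1 was called higher in females and 0 lower. Because the array is rich in neurons, neural markers were read beside it. The neural miR-124-3p had 0 counts in every library. The summed level of the 8 neural markers was 491 to 652 CPM in females and 376 to 406 CPM in males, without overlap. That sum was mostly miR-137-3p. Of the 4 tested, 2 had positive log2 fold changes, and 1 was called higher in females and 0 lower. The sum of the 5 stromal markers went the other way, at 8918 to 11440 CPM in females and 12112 to 12799 CPM in males, with 0 of 5 called. That sum was mostly miR-143-3p. miR-143-3p and miR-199a-3p were higher in every male, whereas miR-145a-5p, miR-199a-5p and miR-214-3p overlapped between the sexes. The 5 leukocyte markers overlapped between the sexes at 4039 to 4593 and 2899 to 4453 CPM, with 1 of 5 higher. The part of these cell types in the values of the array was not tested.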

How the data were processed

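The authors deposited 1 table of estimated counts per mature miRNA, not normalised, with a column for each of 6 libraries. Partek, Bowtie and mm10 are named in the submitters' processing notes. Not given in the sources used here are versions, trimming, molecular identifiers and the treatment of reads that match several miRNAs. Of 2045 rows, 138 repeated another exactly and were kept once. All 450 member values were whole; 98.9% of all values were (no tolerance), and counts were rounded for the tests. Stop coordinates were taken to be 1 base past the end. Hairpins and Mirg come from GENCODE (release M21), and 71 of 75 member sequences were found by position in RefSeq (GRCm38.p6).

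Females and males were compared over all miRNAs with edgeR 4.0.16 in R 4.3.3: TMM, filterByExpr by group (minimum count 10, minimum total 15), robust quasi-likelihood test, Benjamini-Hochberg adjustment over 370 miRNAs, threshold 0.05. The SE is the size of the log2 fold change over the square root of F. CPM uses TMM-adjusted library sizes. Groups follow the sex label, and replicates were numbered in accession order. The test was checked on simulated counts. Alternatives were other scalings, filters and tools (DESeq2 1.42.0, limma 3.58.1), thinning, left-out libraries and left-out near-identical members. Named were members past the threshold, the 10 most abundant, those with a negative value, hairpins with both arms tested and members that share a seed. The members, lists and rules were chosen with earlier results of these data known.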

Additional observations from a re-analysis of the deposited data

How the results depend on the processing

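The count of 2 called of 19 tested members was 1 of 19 with upper-quartile factors (7.03% of all tested miRNAs called), 1 of 12 with a minimum count of 50 (5.28%) and 1 of 19 in limma-voom (4.59%). It was 3 of 19 with no scaling factor (5.41%), 6 of 68 with no filter (1.89%) and 6 of 19 in the DESeq2 Wald test (8.38%). When 1 library was left out it was 0 to 12 of 20 to 22 (2.26 to 8.47%). No member was called lower in any fit. Over all miRNAs the 25 calls among 370 tested became 13 among 246 with the minimum count of 50 and 14 among 327 in thinned libraries. Without a library they ranged from 9 to 32. The cause of these changes, and of those among the members, was not tested. The median of the tested members stayed within the spread between libraries (SD 0.41, wide beside the median itself), from 0.60 to 1.09. With no filter it was 0.63, and 40 of 68 members were positive. With no scaling factor the median of all tested miRNAs moved from -0.01 to 0.13, and with upper-quartile factors to -0.10; relative to it the members' median was 0.82 in both. The log2 ratio of the summed level moved from -0.30 to 0.80 without miR-369-3p and ranged from -0.50 to 0.16 without a library. Of 235 values of the 16 named members under alternatives, 206 kept direction and side, 19 gained and 10 lost the threshold, and none changed sign. Only miR-411-5p and miR-541-5p had passed in the main fit, so all 10 losses were theirs. Most of the 206 were values that had not passed and still did not. No paired analysis was possible because the labels give no replicate numbers that the sexes share. In the shallowest library 1 count is 0.304 CPM of the unadjusted total, so differences of that size were not detectable. Far larger ones also did not pass in the main fit, such as means of 33.6 CPM in females and 13.7 CPM in males for miR-376b-3p.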

Other observations

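Of the 370 tested miRNAs, 3 had a higher ratio of male replicate 2 to the median of the other 5 libraries than miR-369-3p: miR-741-3p (4.27), miR-6516-5p (3.51) and miR-1948-3p (3.41). miR-741-3p and miR-1948-3p were high in all males, whereas miR-6516-5p, like miR-369-3p, was high in male replicate 2 alone, at 7.79 CPM against 1.71 to 2.49 CPM in the other 5. These 3 were named after their values were seen.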
